A study of Homo sapiens with 6 samples.

Results

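The zinc finger genes of chromosome 19 are the protein-coding genes of that chromosome whose symbols consist of ZNF and a number, with or without a closing letter. By GENCODE on GRCh38, 246 of the 58395 genes in the data met this rule, and 163 of them held enough counts to be tested among 15566 genes in all. Members were chosen by chromosome, gene type and symbol, but the family as such was proposed with its log2 fold changes in this same comparison known, so that its counts and medians are given as descriptions. The data are RNA-seq of HCT116, a human colorectal cancer line, carrying a lentiviral hairpin that targets nothing (shControl, 3 libraries) or one against STBD1 (shSTBD1, 3 libraries). Cells of both groups had been selected with puromycin, and the labels name 1 hairpin for each group. STBD1 is a receptor that ties glycogen to the autophagy machinery, and the comparison asks which transcripts change when it is depleted. The design calls the samples biological replicates without saying how the cultures were kept apart, so that p-values measure the spread between these samples, which may in part be technical.

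Most zinc finger genes of chromosome 19 encode KRAB zinc finger proteins, which form the largest family of transcription factors in the human genome. Their C2H2 fingers read DNA, often within transposable elements, and their KRAB domain recruits KAP1 (TRIM28), which brings the histone methyltransferase SETDB1 and heterochromatin proteins. The genes arose by tandem duplication, lie in clusters, and are themselves covered in part by trimethylated H3K9.

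Every one of the 246 proteins, translated from the canonical GENCODE transcripts, held at least 1 C2H2 finger by a pattern of paired cysteines and histidines. The median was 12 fingers, from 1 to 36, and 182 of 246 (74.0%) also held the pattern of the KRAB A box. This pattern is 1 fixed spelling of residues, so that a KRAB domain with other residues is missed. To show what such genes share, the coding sequence of the first finger with a standard linker is printed for the 6 members with that pattern among the 8 that passed the test described below. Each run is 84 bases of GRCh38, read 5′ to 3′ on the coding strand, and the capitals mark the codons of the zinc-binding cysteines and histidines.
ZNF708 (chr19:21294375-21294458, - strand): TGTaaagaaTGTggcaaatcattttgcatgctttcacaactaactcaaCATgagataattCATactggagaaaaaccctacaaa
ZNF304 (chr19:57357634-57357717, + strand): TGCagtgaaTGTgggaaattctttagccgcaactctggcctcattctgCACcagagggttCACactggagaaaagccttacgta
ZNF302 (chr19:34684644-34684727, + strand): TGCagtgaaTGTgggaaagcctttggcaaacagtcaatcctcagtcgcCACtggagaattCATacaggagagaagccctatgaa
ZNF616 (chr19:52116270-52116353, - strand): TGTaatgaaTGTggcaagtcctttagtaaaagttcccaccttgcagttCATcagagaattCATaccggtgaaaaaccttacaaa
ZNF480 (chr19:52321947-52322030, + strand): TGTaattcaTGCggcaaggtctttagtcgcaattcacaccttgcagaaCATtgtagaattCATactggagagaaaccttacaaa
ZNF468 (chr19:52841478-52841561, - strand): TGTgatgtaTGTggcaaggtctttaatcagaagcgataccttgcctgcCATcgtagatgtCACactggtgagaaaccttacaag
These 6 fingers were identical at between 48 and 66 of 84 positions in the 15 pairs, with a median of 55, and at 32 positions in all 6. Part of this identity follows from the choice, since the cysteines, histidines and linker had to be present. ZNF616 and ZNF480, which lie in the same cluster, were the most alike. Reads that fall in such repeats can be shared between members, and RSEM's posterior standard deviation, which measures how far a read assignment is undecided, exceeded 5% of the count in 6 tested members. These were ZNF177, ZNF564, ZNF490, ZNF155, ZNF320 and ZNF814, and none of them passed the test.

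STBD1 itself checks the labels. Its level, in TMM-scaled counts relative to library size (CPM), was 16.2, 15.7 and 14.4 in shControl and 11.6, 9.06 and 9.18 in shSTBD1, with a log2 fold change of -0.64 (SE 0.098, adjusted p = 2.9e-04). This and the other adjusted p-values marked edgeR come from the quasi-likelihood test of that package, adjusted as Benjamini and Hochberg proposed over all tested genes. Libraries held between 17689097 and 21668274 expected counts, and replicates varied with a common biological coefficient of variation of 3.37%. Of 9 markers of colon epithelium 7 reached a TPM of 1, TPM being RSEM's level per transcript length, while CDX1 was listed at 0 in every library. Their sum ran from 2859 to 2894 TPM in shControl and from 3243 to 3380 TPM in shSTBD1. The markers of other cells summed to 14.6 to 20.7 TPM for fibroblasts, nearly all of it COL1A1 with LUM at 0, to at most 0.41 TPM for leukocytes, with PTPRC and CD3E at 0, and to at most 0.53 TPM for endothelium. Mitochondrial genes took 6.32% to 7.72% of counts in shControl and 5.78% to 6.15% in shSTBD1, and the part of these differences in the results below was not tested.

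The members were transcripts of low and medium abundance. Among the 163 tested members the mean TPM ran from 0.213 to 113 with a median of 4.88, against a median of 11.7 over all tested genes. In all, 151 members reached 1 TPM and 33 reached 10 TPM. Of the 83 untested members, 58 had no count in any library, and the highest mean was 0.443 TPM.

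ZNF146, a protein made of fingers without a KRAB domain and long noted for its overexpression in colorectal tumours, was the most abundant member. Its TPM was 117, 118 and 114 in shControl and 111, 109 and 110 in shSTBD1, and the log2 fold change of its counts was -0.05 (SE 0.031, adjusted p = 0.36, edgeR). The shControl libraries were all higher in TPM, whereas in CPM the groups overlapped, at 190, 190 and 186 against 186, 181 and 182. ZNF428 followed at 41.9 TPM, ZNF121 at 40.8 TPM, ZNF83 at 32.0 TPM and ZNF561 at 29.7 TPM. Of these, ZNF428 alone passed the test, and the differences of the other 3 on the log2 scale were 0.02, 0.07 and -0.03. The 5 most abundant members held 21.1% of the TPM of the family.

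The family as a whole was slightly lower in shSTBD1. Its summed level was 2434, 2400 and 2424 CPM in shControl and 2295, 2300 and 2320 CPM in shSTBD1. All shSTBD1 libraries were lower, by 4.72% between the means (2419 ± 17.6 against 2305 ± 13.5 CPM, SD, n = 3), and without the 5 most abundant members the difference was -5.25%. In TPM the sums were 1203, 1270 and 1252 against 1200, 1187 and 1203, so that on this scale shSTBD1 replicate 3 reached shControl replicate 1. In bulk RNA, fewer cells that express a gene and less RNA of it per cell cannot be told apart.

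The median log2 fold change was -0.09 over the 163 tested members and 0.00 over all tested genes, and 119 members (73.0%) had a value below 0 against 49.3% of all tested genes. With offsets for effective length, described below, the medians were -0.046 and 0.012. The middle of the distribution ran from -0.21 at the lower quartile to 0.01 at the upper quartile, and no member differed by more than 1 on the log2 scale. Measured against the mean of all 6 libraries, the median member lay at 0.05, 0.03 and 0.04 on the log2 scale in the shControl libraries and at -0.04, -0.04 and -0.02 in shSTBD1, while the median of all genes moved by less than 0.01. These deviations, from TMM-scaled counts, restate the same comparison library by library and are no separate support for it. The median difference between the groups, -0.09, was close in size to the SE of single members, whose median was 0.10.

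The remaining genes of the chromosome did not share this direction. The 794 other tested protein-coding genes of chromosome 19 had a median log2 fold change of 0.03, and 42.3% of them were below 0. Zinc finger genes of the same naming on other chromosomes had a median of -0.05 over 218 tested genes, and 66.1% were below 0. Which of these zinc finger groups was lower turned with the scale, since the median outside chromosome 19 was -0.063 with effective-length offsets and -0.071 under limma on log2(TPM + 1), against -0.046 and -0.059 for the members. At an adjusted p under 0.05, 32 of the 218 (14.7%, beside 15.8% of all tested genes) were called, 26 lower and 6 higher, but 1 and 0 with effective-length offsets. A further 7 tested genes of chromosome 19 with C2H2 symbols of other kinds (ZFP, ZSCAN, ZIM and others) had a median of -0.07, which turned to 0.082 with effective-length offsets and to 0.058 under limma on log2(TPM + 1) and ran from -0.14 to -0.0055 with 1 library left out, and 1 of them rose. The differences between these groups of genes were not tested.

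Single members passed the test less often than genes at large. At an adjusted p under 0.05, 8 of 163 members (4.91%) were called, against 15.8% of all tested genes, with 7 lower (7.54% of all genes were called lower) and 1 higher (8.22% of all genes were called higher). At an unadjusted p under 0.05 there were 39 members (23.9%), against 30.0% of all genes. Lower in shSTBD1 at this threshold were 36 of the 163 members, against 2292 of all 15566 genes (14.7%). Among those past it, 36 of 39 members and 2292 of 4677 genes were lower. The 3 libraries of each group did not overlap in 46 members (28.2%), against 33.6% of all genes. Without overlap and with shSTBD1 lower there were 39 of the 163 members, against 2531 of all 15566 genes (16.3%). The median tested member held 175 counts per library and the median tested gene 444, with a median SE of 0.10 against 0.068. The share of members lower in shSTBD1 was thus below the background at the adjusted threshold and above it at the unadjusted one.

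ZNF428, a small protein with 1 finger by its pattern and without the KRAB pattern, fell. Its CPM was 35.5, 37.6 and 38.6 in shControl and 29.5, 28.05 and 28.4 in shSTBD1. The groups were well apart, with a log2 fold change of -0.38 (SE 0.054, adjusted p = 1.6e-04, edgeR). SRRM5, on the opposite strand, overlaps 32.1% of its exon bases, and since the strand setting of the counting is not stated, reads of both genes may be joined here. It was the only called member among 20 tested members with more than 10% of their exon bases overlapped in this way.

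ZNF480, a KRAB member with 10 fingers by the pattern, also fell. Its CPM was 24.3, 22.3 and 23.8 in shControl and 18.8, 19.2 and 19.2 in shSTBD1, with a log2 fold change of -0.30 (SE 0.063, adjusted p = 0.0041, edgeR), which was -0.15 with the effective-length offsets described below (adjusted p = 0.40, edgeR). ZNF616, with 21 fingers, lies in the same cluster, and the tested member ZNF766, which was not called, stands between them. ZNF616 had 16.3, 13.99 and 15.0 CPM in shControl and 11.9, 11.7 and 13.1 CPM in shSTBD1 (log2 fold change -0.30, SE 0.084, adjusted p = 0.022, edgeR). In both ZNF480 and ZNF616 the groups were apart, with shSTBD1 lower throughout. The third called gene of the same cluster was ZNF468, at 39.2, 39.5 and 37.5 CPM against 33.6, 35.3 and 34.5 CPM (log2 fold change -0.17, SE 0.050, adjusted p = 0.031, edgeR). Its change was the smallest of the 8, and its read assignment carried a posterior standard deviation of 3.80% of the count.

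ZNF708 had 12.8, 11.2 and 12.1 CPM in shControl and 9.13, 9.79 and 9.58 CPM in shSTBD1 (log2 fold change -0.34, SE 0.090, adjusted p = 0.018, edgeR). It lies in the cluster beside the centromere, where recently duplicated primate genes such as ZNF91, a repressor of SVA retrotransposons, are found. ZNF304, a KRAB member with 15 fingers by the pattern, had 15.1, 13.7 and 14.7 CPM against 11.5, 10.5 and 12.8 CPM (log2 fold change -0.33, SE 0.088, adjusted p = 0.018, edgeR). In both genes the groups were separate, and shSTBD1 replicate 3 came nearest to shControl in ZNF304.

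ZNF302 was the member just inside the threshold. Its CPM was 10.2, 12.5 and 11.4 in shControl and 9.30, 8.37 and 9.88 in shSTBD1, a log2 fold change of -0.31 with an adjusted p of 0.046. ZNF761 was the member just outside, at 24.0, 24.3 and 21.6 CPM against 20.1, 19.4 and 21.5 CPM, with a log2 fold change of -0.20 and an adjusted p of 0.058. The gap between the nearest libraries of ZNF761 was small, as shSTBD1 replicate 3 nearly met shControl replicate 3.

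ZNF274 was the single member that rose. It differs from most of the family in its known role, as it binds the 3′ ends of other zinc finger genes and brings KAP1 and SETDB1 to them, and it holds a KRAB domain and 5 fingers by the pattern. Its CPM was 12.6, 14.8 and 16.1 in shControl and 17.0, 20.7 and 17.0 in shSTBD1 (log2 fold change 0.34, SE 0.097, adjusted p = 0.027, edgeR). All shSTBD1 libraries were higher in counts, though shControl replicate 3 came close. In TPM the values were 5.85, 7.84 and 9.27 against 8.47, 8.93 and 8.20, and there the groups overlapped.

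The calls changed with the scale. RSEM's effective length, the length over which a fragment can start, is estimated for each gene and library from its isoforms. When it was added to the fit as an offset, the 8 genes kept their sign, but 0 members passed (adjusted p of the 8 from 0.058 to 0.51, edgeR). At an unadjusted p under 0.05 there were 16 of 163 members, beside 2952 of all 15566 tested genes. Limma on log2(TPM + 1) also called 0 members, beside 178 genes higher and 114 lower among all tested. It had 19 members at an unadjusted p under 0.05, beside 2738 of all tested genes. Under these offsets 98 of 163 members were below 0, 41 members changed sign, the median SE was 0.146, and 3.28% of all tested genes were called. The log2 fold change of ZNF274 was 0.19 in place of 0.34 under these offsets. In ZNF616 the TPM was 6.54, 5.89 and 6.22 in shControl and 3.34, 4.57 and 5.97 in shSTBD1, so that shSTBD1 replicate 3 overlapped shControl on this scale and the shSTBD1 libraries spread more widely than in CPM. With DESeq2, 4 of the 8 passed, beside 872 genes called higher and 818 lower among all 15566 tested.

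The calls also changed with single libraries. Of the 8 calls, 3 held without shSTBD1 replicate 1, 3 without shSTBD1 replicate 2 and 5 without shSTBD1 replicate 3. Without shControl replicates 1, 2 and 3 there were 5, 6 and 5, together with 5, 2 and 2 members not called from all libraries. ZNF428 and ZNF480 passed in each of these 6 fits, ZNF274 in 4, ZNF708 and ZNF304 in 3, ZNF616 and ZNF468 in 2, and ZNF302 in 1.

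The 5 largest differences among members that did not pass belonged to genes of few reads. ZNF599 had 1.45, 0.910 and 1.81 CPM in shControl and 0.984, 0.598 and 0.555 CPM in shSTBD1, a log2 fold change of -0.96 (SE 0.34, adjusted p = 0.067, edgeR), and its groups overlapped. ZNF461 and ZNF575 had log2 fold changes of -0.73 and -0.71, and ZNF233 had one of 0.71, with adjusted p from 0.13 to 0.19 in edgeR's test. All 3 stayed under 1.5 CPM in every library. ZNF320 had 0.675, 2.20 and 1.81 CPM against 1.20, 0.966 and 1.11 CPM, and the posterior standard deviation of its count was 106% of the count, so that its level is not determined by the reads.

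Along the chromosome, the members formed 20 clusters when a gap of more than 500 kb opened a new one. Cluster values here are from TMM-scaled counts where no offsets are named. Members called lower lay in clusters at several places. In 16 of the 18 clusters with a tested member the median log2 fold change was below 0. With effective-length offsets 41 of the 163 members changed sign and 98 were below 0, so that cluster medians can turn on that scale. The cluster at chr19:39984134-40090943 had a median of -0.09 from counts. Its tested genes ZNF546, ZNF780B and ZNF780A stood at 0.17, 0.0088 and 0.24 with these offsets. The 7 clusters with at least 10 tested members held 133 of the 163. The cluster beside the centromere (chr19:19668796-24129968) had the lowest median of these, -0.16 over 15 tested of 37 members, with 13 below 0, and ZNF708 lies in it. With effective-length offsets the middle of its 15 values was -0.20, that of ZNF675. The cluster with ZNF480, ZNF616 and ZNF468 (chr19:51571283-53580269) had a median of -0.15 over 26 tested of 39 members, with 21 below 0. In the cluster of ZNF428 (chr19:43525497-44500524) the median was -0.12 over 18 genes.

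The distal cluster (chr19:57191500-58481230), which holds both ZNF304 and ZNF274, was the largest, with 36 tested of 43 members and a median of -0.09. Medians nearer to 0 were found in the clusters at chr19:11483427-12640098, with -0.07 over 13 genes, and at chr19:36182276-37817300, with -0.03 over 13 genes. Both turned with effective-length offsets. The middle of the 13 values was then 0.0042 in the former (ZNF44) and 0.014 in the latter (ZNF875). The cluster at chr19:8509678-9793180, which holds the abundant ZNF121 and ZNF561, was the exception among the large ones in counts, with a median of 0.04 and 7 of 12 genes above 0. In the small cluster of ZNF302 and ZNF599 all 5 genes were below 0, with a median of -0.31. Of 145 pairs of neighbours within a cluster, 77 were both below 0, 11 both above and 57 split. Spearman's rho between neighbours was 0.09. Since the SE of single members had a median of 0.10, this low rho cannot show that adjacent genes were unrelated.

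**Figure D1:**
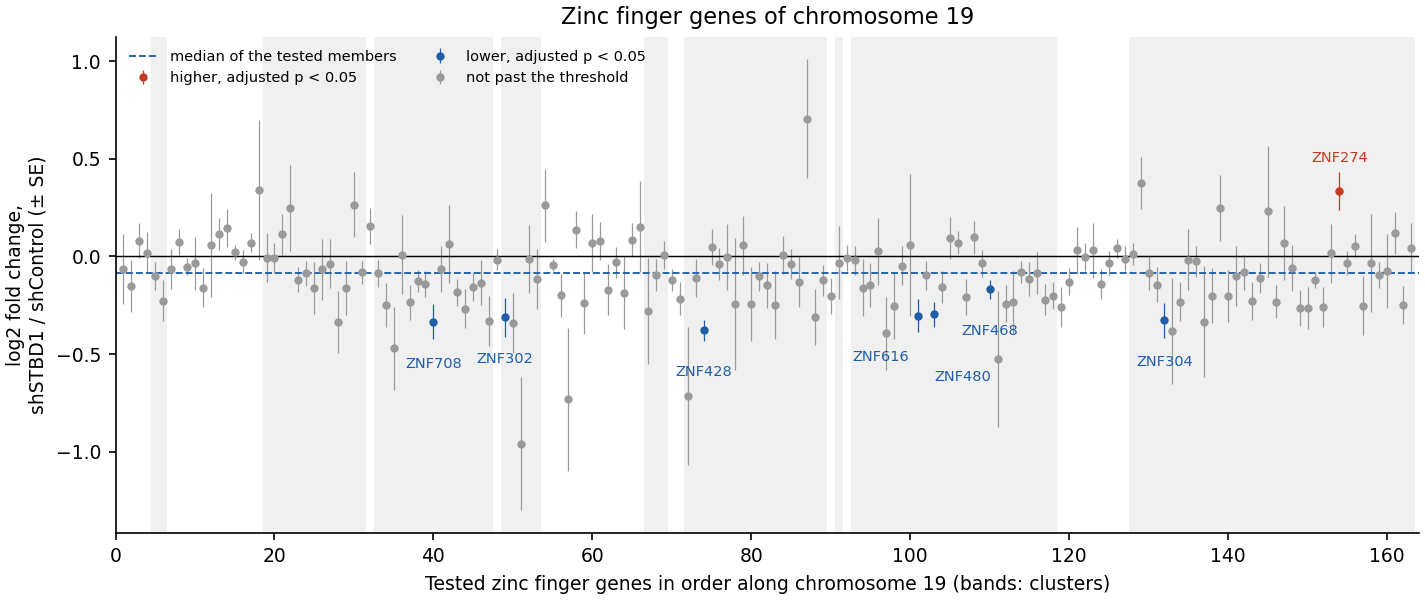
The log2 fold change of shSTBD1 over shControl from TMM-scaled counts (y axis, bars are ± SE) of the 163 tested members in their order along chromosome 19 (x axis), with neighbouring clusters in alternate shades. Members below 0 occur in nearly every cluster, and the dashed line at -0.09 is the median of all 163 tested members.

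Features of the genes tracked the values weakly. Across the 163 tested members, which share their libraries, Spearman's rho of the log2 fold change was 0.17 with the GC content of the transcript, -0.09 with gene length, 0.08 with the mean count, -0.06 with the number of fingers and -0.17 with the posterior standard deviation. Over all tested genes rho was 0.03 with GC content and -0.17 with gene length. The median transcript of a tested member had 42.8% GC, against 49.3% over all tested genes. The median log2 fold change of the members stayed at -0.09 with GC offsets and was -0.08 with gene-length offsets. The 114 tested members with the KRAB pattern had a median of -0.10 and the 49 without it one of -0.05, whereas the share below 0 was 70.2% with the pattern and 79.6% without it. Of the former 7 (6.14%) were called and of the latter 1 (2.04%), both below the 15.8% of all tested genes. Since the pattern can miss a KRAB domain, the 49 lack the pattern but were not shown to lack the domain. This split therefore does not compare KRAB proteins with others.

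Many promoters of the family, though fewer than those without it, held a run of letters that the rule did not use. RefSeq promoters, which run from 250 bases before to 50 bases after the start on GRCh38.p14, were found for 216 of the 246 members, and for 7 of the 8 called ones, without ZNF480. The letters CCGGAAG, the core that ETS factors are known to bind, stood on either strand in 98 of 216 (45.4%), against 10.7% of all 27305 promoters, 13.96% of 15129 promoters of other protein-coding genes and 34.3% of zinc finger promoters on other chromosomes. They were as frequent among tested members (46.2% of 145) as among untested ones (43.7% of 71). CCAAT on either strand was found in 53.7% of members and 35.7% of all promoters, TATAAA in 1.85% and 11.95%, and GCGCATGC in 4.17% and 3.27%, and none of these letter strings contains another. Of the called members, ZNF708, ZNF302, ZNF616 and ZNF274 held CCGGAAG, and a gene that fell and the one that rose are printed here, 5′ to 3′ on the strand of the gene, with CCGGAAG or its reverse complement in capitals.
ZNF616 (chr19:52139889-52140188, - strand): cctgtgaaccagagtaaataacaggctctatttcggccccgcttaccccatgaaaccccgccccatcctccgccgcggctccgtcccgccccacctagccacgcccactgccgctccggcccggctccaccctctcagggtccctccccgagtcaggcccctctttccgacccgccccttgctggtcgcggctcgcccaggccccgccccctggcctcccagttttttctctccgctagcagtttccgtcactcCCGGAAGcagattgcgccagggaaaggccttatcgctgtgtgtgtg
ZNF274 (chr19:58182811-58183110, + strand): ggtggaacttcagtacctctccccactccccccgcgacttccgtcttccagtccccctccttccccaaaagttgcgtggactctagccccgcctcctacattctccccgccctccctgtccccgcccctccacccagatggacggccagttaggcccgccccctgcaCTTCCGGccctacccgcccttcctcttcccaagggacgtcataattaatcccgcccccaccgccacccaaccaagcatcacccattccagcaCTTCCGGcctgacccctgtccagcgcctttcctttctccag
ZNF616, which fell, holds the letters once, close to its start, and ZNF274, which rose, holds them at separate places. The 67 tested members with the letters had a median log2 fold change of -0.10, and the 78 without them one of -0.07, while 46 of the 67 and 58 of the 78 were below 0. A match of letters is a description of the window and no measure of binding.

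A list of 23 genes of KAP1 and H3K9 methylation was examined, all of them tested. It is wider than the partners of KRAB proteins such as TRIM28 and SETDB1, as it also holds DNMT1, UHRF1 and SUV39H2, among others. Of the 23 genes, 6 fell and 0 rose at an adjusted p under 0.05 (26.1%, beside 7.54% of all tested genes called lower). Their median log2 fold change was -0.07. These are abundant transcripts, with a median of 1980 counts and a median SE of 0.037. TRIM28, the corepressor itself and also a gene of chromosome 19, had 1003, 919 and 960 CPM in shControl and 917, 910 and 859 CPM in shSTBD1, a log2 fold change of -0.10 (SE 0.037, adjusted p = 0.070, edgeR). Its groups nearly met, at 919 and 917 CPM, without overlapping. SETDB1, the methyltransferase, was level at 57.1, 52.5 and 51.1 CPM against 54.2, 52.5 and 53.3 CPM (log2 fold change -0.01, adjusted p = 0.94, edgeR).

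ATF7IP, the partner that stabilises SETDB1 in the nucleus, fell from 66.3, 61.7 and 57.2 CPM to 54.0, 47.7 and 54.4 CPM (log2 fold change -0.25, SE 0.059, adjusted p = 0.0078, edgeR). SUV39H2, an H3K9 methyltransferase, had 28.05, 28.8 and 26.4 CPM against 24.5, 22.2 and 24.3 CPM (log2 fold change -0.23, SE 0.062, adjusted p = 0.017, edgeR). In both the shSTBD1 libraries were all lower. The chromatin remodellers SMARCAD1 and CHD4 fell by 0.14 and 0.13 on the log2 scale, the heterochromatin protein gene CBX1 by 0.12, and UHRF1, which guides maintenance DNA methylation and lies on chromosome 19, by 0.11, with adjusted p from 0.014 to 0.046 in edgeR's test. With 1 library left out in turn, ATF7IP passed in 5 of 6 fits, SUV39H2 in 4, CBX1 in 3, CHD4 in 2, and SMARCAD1 and UHRF1 in 1 each, and the log2 fold change of CHD4 was -0.07 without shControl replicate 1. Of the 23, edgeR with effective-length offsets called 0 (9 at an unadjusted p under 0.05), limma on log2(TPM + 1) called 0 (8 at an unadjusted p under 0.05), and edgeR without shSTBD1 replicate 2 called 0 (11 at an unadjusted p under 0.05). Among all tested genes these settings called 188, 114 and 624 lower. At an unadjusted p under 0.05 they had 2952 of 15566, 2738 of 15566 and 3880 of 15829 genes. Without the other libraries, between 2 and 8 of the 23 were called lower.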

How the data were processed

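RNA-seq libraries of 3 shControl and 3 shSTBD1 cultures were grouped by their titles. The authors filtered the reads, aligned them with STAR 2.7.1a to Hg38 under Ensembl release 93, and deposited RSEM 1.3.1 gene tables (versions per the submitters' processing notes). The deposited expected counts are not normalized. The deposited TPM values were computed by the authors from expected counts and effective length. The kit's strand setting in counting is not given in the sources used here.

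Members and lists were chosen with earlier results of these data known. Expected counts were rounded, filtered with filterByExpr, scaled by TMM and tested in edgeR 4.0.16 under R 4.3.3 (glmQLFit and glmQLFTest), with Benjamini-Hochberg adjustment over 15566 genes. The standard error of a log2 fold change is its size over the root of F. Totals of 17689097 to 21668274 per library set the precision. Of 58395 genes, 57754 matched GENCODE release 44, a later annotation than the authors' release. No RefSeq protein table was used, so fingers (2 cysteines, 12 residues, 2 histidines spaced by 3 to 5) and the KRAB pattern were counted in translated canonical transcripts, which also gave GC content. Finger sequences and promoter motifs were chosen for display after the calls were known.

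Named members are those past an adjusted p of 0.05 whose groups do not overlap (up to 10 per direction), the 5 with the highest TPM, the 5 with the largest difference not passing, and those just inside and outside the threshold. Other genes named were chosen after their values were seen. Machinery genes are TRIM28, SETDB1 and those that passed. Alternatives were DESeq2 1.42.0, limma 3.58.1 on log2(TPM + 1) and log2(TPM + 0.1), other scalings, filters and offsets, the replicate number as a block, and each library left out. The scripts were tested on simulated data of 15566 genes. There edgeR recovered 71% of genes changed by 0.5 and 90% of those changed by 1 on the log2 scale. It made 6 false calls among 167, and called 0 with no change. The changed genes were picked from all genes, and effective lengths were not simulated. These shares are thus not those of the members, whose median was 175 counts.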

Additional observations from a re-analysis of the deposited data

How the results depend on the processing

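The members' median log2 fold change was below 0 in every alternative, from -0.11 without shControl replicate 2 to -0.046 with effective-length offsets. No called member changed sign in any alternative, whereas the number of calls depended on the scale, the test and single libraries, and the cause was not tested. Among members, 3 were lower with DESeq2 and 11 with no filter on low counts, against 7. With effective-length offsets, and likewise under limma on log2(TPM + 1) or log2(TPM + 0.1), 0 were higher and 0 lower (16, 19 and 18 at an unadjusted p under 0.05), and the median was -0.046, -0.059 and -0.068. Of all 15566 tested genes, 2952, 2738 and 2737 had an unadjusted p under 0.05 in these settings. Leaving out 1 library gave 2 to 10 lower, 0 to 1 higher and a median of -0.11 to -0.088. The median tested member held 175 counts per library, with a median SE of 0.10.

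The replicate numbers did not pair the samples: the correlations of same-numbered deviations were 0.071, 0.068 and -0.0084, and not all were over 0.1. With the replicate number as a block, 6 members were lower and 1 higher, with a median of -0.09. With the block and GC offsets 8 were lower and 1 higher.

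Over all tested genes, 322 were higher and 188 lower with effective-length offsets, 178 and 114 when limma was run on log2(TPM + 1), 176 and 114 on log2(TPM + 0.1), and 785 to 1333 and 624 to 1244 with 1 library left out. Their median was -0.00045 with DESeq2, 0.013 with library size alone, -0.00071 with upper-quartile factors, -0.0079 with no filter, 0.012 with effective-length offsets, -0.0029 with GC offsets, -0.0033 with gene-length offsets, -0.0027 with the replicate block and GC offsets, -0.0089 and -0.010 with limma at a pseudocount of 1 and 0.1, and 0.00068 to 0.0038 with 1 library left out.

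For zinc finger genes outside chromosome 19, 17 were lower with DESeq2. With effective-length offsets 0 were higher and 1 lower, and with both limma settings 0 and 0. The median was -0.042 with library size alone and with gene-length offsets, -0.063 with effective-length offsets, and -0.071 and -0.083 with limma. With 1 library left out, 3 to 9 were higher and 9 to 28 lower. For other protein-coding genes of chromosome 19, 67 were higher with DESeq2, 23 higher and 5 lower with effective-length offsets, and 13 or 12 higher and 5 lower with limma. Their median was 0.0070 with gene-length offsets and 0.012 and 0.013 with limma, and leaving out 1 library gave 59 to 102 higher and 30 to 58 lower. The other C2H2 families of chromosome 19 had a median of 0.082 with effective-length offsets and 0.058 and 0.063 with limma. For the KAP1 and H3K9 machinery, 0 were lower with effective-length offsets and under limma, where the median was -0.088 and -0.089, and 0 to 8 with 1 library left out.

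ZNF121 turned to -0.0049 with effective-length offsets and to -0.028 and -0.029 with limma, and ran from -0.016 to 0.045 with 1 library left out. ZNF561 turned to 0.19 with effective-length offsets, to 0.15 and 0.16 with limma, and ran from -0.092 to 0.023. SETDB1 turned to 0.0031 with library size alone and to 0.0048 with effective-length offsets, and ran from -0.038 to 0.038. STBD1 had -0.54 (adjusted p = 0.065) and -0.65 (adjusted p = 0.067) with limma. The median number of fingers was again 12 with 3 residues between the histidines, and a gap of 1 Mb gave 16 clusters in place of 20.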
